A study of Mus musculus with 3 samples.

Results

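The genes described here are the inducible and constitutive heat shock genes of the cytosol and mitochondrion. They were listed by name (Hspa1a, Hspa1b, Hspa8, Hsp90aa1, Hsp90ab1, Dnajb1, Hsph1, Hspb1, Hspd1 and Bag3) and read through the probe sets that the platform annotation gives to each gene alone. Of the 10 listed genes, 9 had such probe sets, 21 in all, out of 18194 genes and 45101 probe sets on the array. Hsp90ab1 was not analysed here. The samples were 3 cultures of imLECs, lymphatic endothelial cells isolated by flow sorting from the skin of H-2Kb-tsA58 ImmortoMice, with 1 culture each at passages 13, 14 and 18. In these mice the interferon-inducible H-2Kb promoter drives a temperature-sensitive SV40 large T antigen. All 3 cultures were expanded at 33 °C with interferon-gamma at 1 unit/ml, then held at 37 °C without it for 3 days, a step meant to let the T antigen be degraded, before RNA was taken. No culture kept at 33 °C was analysed here, so the values describe cells after the move and give no comparison with cells before it. Each passage is a single culture, whether cultures shared a starting isolate is not given in the sources used here, and the 3 form 1 group.

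Heat shock genes encode chaperones, proteins that bind unfolded chains and help them fold, or hand them over for breakdown. Hsp70 proteins bind short exposed stretches with the help of J-domain proteins such as Dnajb1 and release them through nucleotide exchange factors such as Hsph1 and Bag3. Hsp90 finishes the folding of kinases and receptors, small heat shock proteins hold unfolded proteins in solution, and Hspd1 with its lid Hspe1 forms a folding chamber in the mitochondrion. On heat or other protein damage the transcription factor HSF1 binds heat shock elements, inverted repeats of GAA, in the promoters of the inducible members, whereas Hspa8 is made in nearly every cell without stress.

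The promoter stretches below are shown because they hold the letters HSF1 is known to bind. They come from RefSeq windows of assembly GRCm38.p6 that run from 250 bases before to 50 bases after a transcript start. Of the members, 7 had a window, 10 windows in all, and Hspa8, Hsp90aa1 and Hsp90ab1 had no entry. Capitals mark GAANNTTC or TTCNNGAA, searched on both strands (each reads the same on either), and where they overlap they form GAANNTTCNNGAA or its reverse complement TTCNNGAANNTTC.
Hspa1a (chr17:34972233-34972280, minus strand): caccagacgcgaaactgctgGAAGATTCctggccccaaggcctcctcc
Hspa1b (chr17:34959315-34959362, minus strand): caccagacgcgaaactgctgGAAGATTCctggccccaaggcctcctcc
Hsph1, upstream match (chr5:149636342-149636389, minus strand): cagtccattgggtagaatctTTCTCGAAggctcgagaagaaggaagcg
Hsph1, downstream match (chr5:149636280-149636308, minus strand): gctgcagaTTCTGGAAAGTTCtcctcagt
Hspb1 (chr5:135887782-135887849, plus strand): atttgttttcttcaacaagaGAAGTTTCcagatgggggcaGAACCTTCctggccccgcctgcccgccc
Hspd1 (chr1:55088039-55088096, minus strand): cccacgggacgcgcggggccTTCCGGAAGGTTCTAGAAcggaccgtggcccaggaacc
Bag3 (chr7:128523617-128523632, plus strand): tgggaccaGAAGTTTC

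GAANNTTC or TTCNNGAA was found in windows of 6 of the 7 members, against 17% of the 27025 genes with a window. The longer GAANNTTCNNGAA was found in 2 of the 7, Hsph1 and Hspd1, against 0.662% of genes. Bag3 had 1 GAANNTTC, 43 bases after its start, and Dnajb1 had no match in either of its windows. In Hspd1 the letters ran unbroken over 18 bases (chr1:55088059-55088076), beginning 144 bases upstream of the transcript start of its second window. The Hspd1 gene spans chr1:55077833-55088243 in RefSeq, so these bases lie inside it, downstream of the start of its first window. The same 18 bases lie within the window of Hspe1 on the opposite strand, ending 72 bases upstream of its start, and the 2 genes overlap by 96 bases in RefSeq. Hspa1a and Hspa1b, neighbours 10120 bases apart on chromosome 17, had windows identical at 296 of 300 bases (98.67%), and the match stood 104 bases upstream in both. The differences, counted from 1 at the 5′ end of the window and with the Hspa1a base first, were C44T, T47C, T249G and C276T. A match describes letters only and shows no binding in these cells.

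Values are signal intensities on a linear scale, as deposited, or their log2. Background was judged from 48 genes restricted to other tissues. Their 95th percentile served as the floor, at log2 5.52, 5.59 and 5.53 for passages 13, 14 and 18, and a gene counts as detected when its brightest probe set exceeds the floor of all 3 arrays. All 9 measured heat shock genes were detected, against 50.3% of all genes. Of their 21 probe sets, 19 were above the floor on all arrays and 2, both of Hsp90aa1, were below it on all. Brightness depends on the probe set as well as on the RNA, so levels are not ranked between genes. In RNA from a whole culture, fewer cells of a type and less RNA per cell cannot be told apart.

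Endothelial markers were present, with all 12 pan-endothelial genes and 7 of 11 measured lymphatic genes detected, among them Pdpn, Lyve1 and Flt4. Reln, Itga9 and Mmrn1 of the lymphatic list exceeded the floor at no passage. Prox1, the transcription factor of lymphatic identity, exceeded the floor at 2 of the 3 passages. It read 6.20, 5.11 and 5.60 in log2 at passages 13, 14 and 18, only just above the floor of 5.53 at passage 18. Of other cell types, 2 of 9 leukocyte, 4 of 10 fibroblast, 3 of 8 mural and 3 of 9 epithelial markers were detected, while Ptprc, Pdgfra, Myh11 and Cdh1 exceeded the floor at no passage. The detected leukocyte markers were Cd68, at log2 6.99, 7.93 and 5.86 for passages 13, 14 and 18, and Coro1a. Lyz2 exceeded the floor at 2 passages. The detected epithelial markers were Krt5, Krt10 and Krt18, the last at 7.85, 7.72 and 8.55. The detected stromal markers were Col1a1, Col3a1, Thy1 and Fbln1 of the fibroblast list and Acta2, Tagln and Pdgfrb of the mural list. At passage 18 relative to 13, Col1a1 was 4.67-fold, Col3a1 3.90-fold, Acta2 3.61-fold and Pdgfrb 2.65-fold higher, whereas Thy1 was 1.45-fold, Fbln1 1.86-fold and Tagln 2.58-fold lower. The passage 18 array stood apart in its ratio of 3' to 5' Gapdh control signal, which was 8.59, 7.10 and 19.4 at passages 13, 14 and 18. The same ratio for the Actb control differed less, at 1.18, 1.20 and 1.42. All 12 pan-endothelial genes also had a lower value at passage 18 than at 13, with a median difference of -0.50 in log2. Of the 9145 detected genes, 4689 were lower and 4409 higher in that pair, with a median difference of -0.012. Of the 7 detected lymphatic genes, 5 were lower and 2 higher at passage 18 than at 13. Lyve1 was 8.44-fold, Sox18 2.55-fold, Flt4 2.22-fold, Nrp2 1.89-fold and Pdpn 1.24-fold lower, whereas Foxc2 was 1.22-fold and Nr2f2 1.01-fold higher. The part of these differences in the passage 18 values was not tested.

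**Figure D1:**
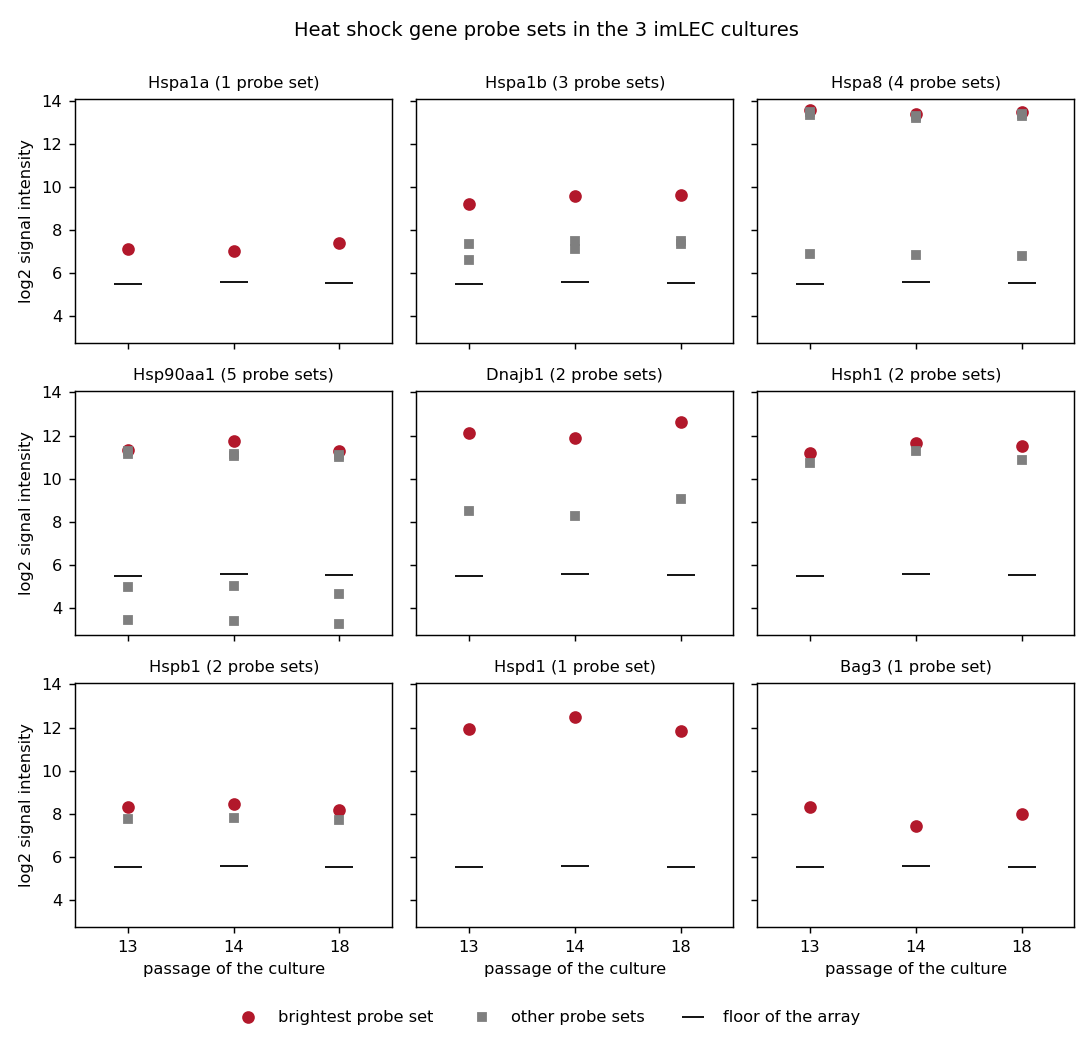
Log2 signal intensity (vertical axis) of every probe set of the 9 measured heat shock genes in the cultures of passages 13, 14 and 18 (horizontal axis). Circles are the brightest probe set of a gene, squares its other probe sets and dashes the floor of each array. All circles lie above the floor, and 2 Hsp90aa1 probe sets lie below it.

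Among the Hsp70 genes, the constitutive Hspa8 had similar readings in all cultures and the inducible pair differed by up to 0.41 in log2 by the brightest probe set. Hspa8 read 11980, 10680 and 11530 at passages 13, 14 and 18 (log2 13.47 ± 0.08, SD, n = 3). A pair of further probe sets gave intensities from 9247 to 11190, and the fourth gave 118.2, 115.9 and 112.9. So 3 of its 4 probe sets lay near the top of the scale and varied little, and how far signal there still follows the amount of RNA was not tested. The brightest carries the suffix _x_at, which marks probes that can bind other transcripts.

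Hspa1b, an inducible Hsp70, read 595.5, 752.7 and 793.2 (9.47 ± 0.22), lowest at passage 13. Its 2 dimmer probe sets were also lowest there, at 96.81, 138.4 and 165.7 for one and at 165.3, 182.7 and 178.5 for the other, an _x_at set. The size of the difference depended on the probe set, since the log2 difference of passage 18 minus 13 ranged from 0.11 to 0.78 over the 3. Hspa1a, the other inducible Hsp70, had 1 probe set, which read 138.2, 130.3 and 169.8 (7.18 ± 0.20) and was highest at passage 18. How far probes of these neighbouring genes read each other's transcript was not tested.

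The genes that assist Hsp70 did not share an order of the cultures. Dnajb1, the J-domain protein that feeds Hsp70, read 4519, 3854 and 6404 (12.23 ± 0.37), 1.42-fold higher at passage 18 than at 13 and 1.66-fold higher than at 14. Its dimmer probe set read 359.8, 312.3 and 527.2, the same order with nearly the same steps. Hsph1, the Hsp110 exchange factor, read 2321, 3238 and 2914 (11.45 ± 0.25), 1.40-fold higher at passage 14 than at 13. Its second probe set read 1718, 2499 and 1882, so both placed passage 14 highest and passage 13 lowest. Bag3, an exchange factor that works with small heat shock proteins in selective autophagy, read 319.8, 171.2 and 253.5 (7.91 ± 0.46). It was 1.87-fold lower at passage 14 than at 13, by its only probe set. So Dnajb1 and Bag3 had their lowest value where Hsph1 had its highest.

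Hsp90aa1, the stress-inducible cytosolic Hsp90, read 2620, 3423 and 2478 (11.46 ± 0.25) by its brightest probe set, highest at passage 14. Its other detected probe sets did not give this order, with 2539, 2130 and 2166 for one and 2257, 2248 and 2041 for the other. The log2 difference of passage 14 minus 13 therefore ranged from -0.25 to 0.39, and its direction was not settled. Hspb1, the small heat shock protein also called Hsp25 in mouse, read 322.6, 354.7 and 292.3 (8.33 ± 0.14). Its second probe set read 218.2, 225.9 and 208.1, in the same order and over a narrow range.

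Hspd1, the chamber-forming chaperonin of the mitochondrion, read 3936, 5745 and 3658 (12.09 ± 0.35), 1.46-fold higher at passage 14 than at 13. Passages 13 and 18 were close to each other and passage 14 stood above both. Hspe1, its lid and the gene that shares its promoter stretch, read 5786, 6982 and 5684, and 1218, 1871 and 1237 by its second probe set. Hspa9, the mitochondrial Hsp70, read 3315, 4622 and 2872. Both were thus highest at passage 14 as well, by 0.27 and 0.48 in log2 over passage 13 by their brightest probe sets.

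No heat shock gene differed 2-fold between any pair of cultures. Of the 9145 detected genes, 1.96% were at least 2-fold higher and 3.03% at least 2-fold lower at passage 14 than at 13, 2.17% and 2.12% at passage 18 than at 13, and 6.50% and 5.24% at passage 18 than at 14. At a smaller step of 0.3 in log2, chosen after these values were seen, 4 of the 9 genes were higher at passage 14 than at 13 (Hspa1b, Hsp90aa1, Hsph1 and Hspd1), against 19.2% of detected genes. Bag3 was lower by that step (1 of 9, against 23.0%). At passage 18, 3 were higher than at 13 (Hspa1b, Dnajb1 and Hsph1), against 20.4%, and 1, Bag3, was lower, against 21.5%. At passage 18, 3 were higher than at 14 (Hspa1a, Dnajb1 and Bag3), against 29.2%, and 2, Hsp90aa1 and Hspd1, were lower, against 27.2%. The counts rest on the brightest probe set: with each gene's probe sets reduced to their median, 2 were higher at passage 14 than at 13 (Hspd1 and Hsph1), against 20.5% of detected genes. With that median 1 was higher at passage 18 than at 13 (Dnajb1), against 18.6%, and 1 was lower at passage 18 than at 14 (Hspd1), against 28.6%. These are single cultures, without a test, and shares near those of all detected genes are no result about the heat shock genes.

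**Figure D2:**
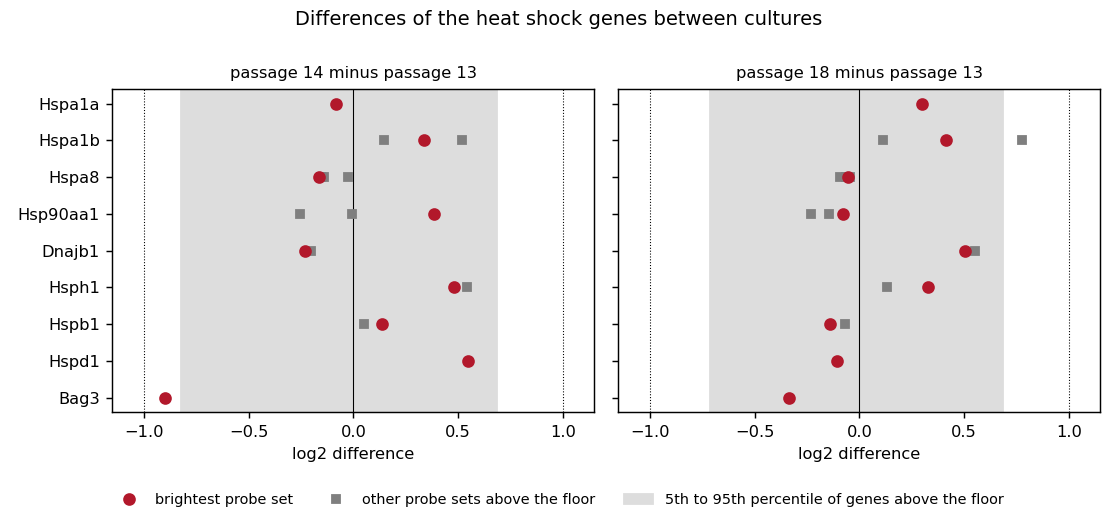
Log2 difference (horizontal axis) of passage 14 minus 13 (left) and of passage 18 minus 13 (right) for each heat shock gene (vertical axis). Circles are the brightest probe set, squares the other detected probe sets, the grey band spans the 5th to 95th percentile of detected genes and dotted lines mark 2-fold. Bag3 at passage 14 lies outside the band at -0.90, as does 1 dimmer Hspa1b probe set at passage 18.

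The median spread of the heat shock genes among cultures was close to that of all detected genes. Their median SD was 0.25 in log2, against 0.24 over all detected genes, and 4 of the 9 lay below that median. The highest value was at passage 13 in 2 of the genes, at 14 in 4 and at 18 in 3, against 25.9%, 36.4% and 37.6% of detected genes, so these counts set the heat shock genes little apart. Bag3 had the widest spread of the 9 at 0.46 and Hspa8 the narrowest at 0.08. The genes whose 2 differences from passage 13 lay nearest to those of Bag3, by Euclidean distance over 3 cultures, were Pwwp2b, Slco3a1, Zfyve1, Rnpepl1 and Syf2, at distances from 0.02 to 0.06 in log2.

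**Figure D3:**
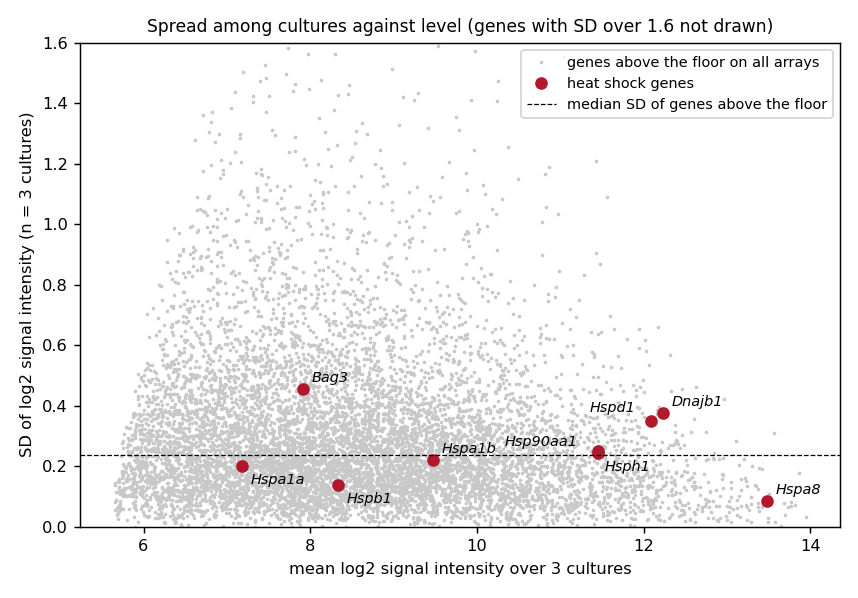
SD of log2 signal intensity over the 3 cultures (vertical axis) against mean log2 signal intensity (horizontal axis), with detected genes in grey and the 9 heat shock genes as labelled circles. The dashed line is the median SD of detected genes, 0.24, and the heat shock genes lie on both sides of it, between 0.08 and 0.46.

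A trend with passage number was fitted over all 9717 genes with a mean above the floor (limma, Benjamini-Hochberg adjustment). None of the 9 heat shock genes passed, nor did any other gene (0% called, 345 genes at an unadjusted p under 0.05). Dnajb1 had the steepest slope of the heat shock genes, 0.12 ± 0.05 log2 units per passage (SE, limma adjusted p = 0.892), with the passage 14 value below that of passage 13. With 3 cultures and a line there is 1 residual degree of freedom, and a p that misses the threshold does not show that cultures were alike.

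Other chaperone genes, listed by family, were mostly detected, at 76 of 84 measured genes, against 50.3% of all genes. Among the small heat shock genes other than Hspb1, 4 of 9 were. The 13 detected TRiC and prefoldin genes, the cytosolic chaperonin and its delivery complex, all had a lower value at passage 18 than at 14. Their median difference was -0.26 in log2, and 4476 of 9145 detected genes were lower in that pair. The differences were small for several, such as Cct6a at -0.003 (0.04 higher at passage 14 than at 13). Quantile normalization left 12 of the 13 lower, and with the median of probe sets 12 of the 12 then detected were lower. Between passages 18 and 13 the ends of this list were Cct8 at 0.16 and Cct3 at 0.10, and Pfdn1 at -0.46 and Pfdn2 at -0.31. Of the 13 detected mitochondrial chaperones and proteases, 11 had a higher value at passage 14 than at 13 (median difference 0.10), where 4426 of 9145 detected genes did, and 11 a lower value at passage 18 than at 14. Clpp, a protease subunit, differed by 0.22 and Htra2 by 0.05 in log2 between passages 18 and 13. At the other end were Hscb, which serves iron-sulfur cluster assembly, at -0.44 and the protease subunit Afg3l2 at -0.29.

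Of the detected Hsp90 co-chaperones and paralogs, 9 of 13 had a higher value at passage 14 than at 13 (median difference 0.16). In that pair 4426 of 9145 detected genes were higher. At passage 18, 11 of the 13 had a lower value than at 14 (median difference -0.32), where 4476 of 9145 detected genes did. Cdc37, which brings kinases to Hsp90, read 642.3, 608.7 and 296.7, and its second probe set 207.6, 175.5 and 169.8, a far smaller step at passage 18. Pih1d1 differed by -0.61 in log2 between passages 18 and 13, Cdc37l1 by 0.15 and Hsp90b1 by 0.17. Fkbp4, an immunophilin partner of Hsp90 named after its values were seen, read 397.4, 750.8 and 265.9, the widest range of that list. Cell cycle genes stood in the same order: all 18 detected had a higher value at passage 14 than at 13 (median difference 1.25 in log2), and 17 of 18 a lower value at passage 18 than at 14 (median difference -1.87). Mki67, a marker of cycling cells, read 219.1, 651.9 and 157.8 and Cdk1 524.1, 1105 and 303.9. Their part in the chaperone differences was not tested.

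**Figure D4:**
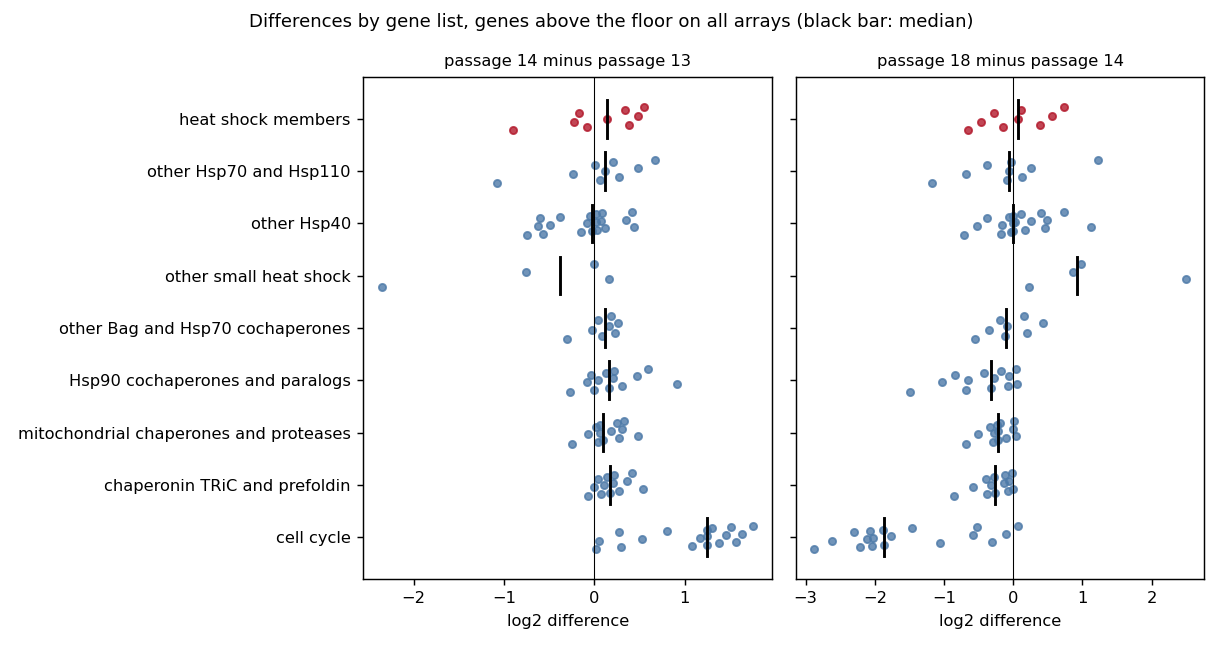
Log2 difference (horizontal axis) of passage 14 minus 13 (left) and of passage 18 minus 14 (right) for the detected genes of each list (vertical axis), 1 point per gene, with black bars for medians. The 9 heat shock genes, in red, lie on both sides of 0 in both panels, the TRiC and prefoldin genes lie at or below 0 on the right, and of the 9 lists drawn the cell cycle genes have the median farthest from 0.

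Of the small heat shock genes other than Hspb1, 4 of 9 were detected. Cryab, alphaB-crystallin, read 5005, 981.2 and 5535, 5.10-fold lower at passage 14 than at 13, and its second detected probe set read 1657, 260.1 and 1623. Hspb6 read 235.3, 139.1 and 253.3, and Hspb8, a partner of Bag3, read 313.4, 349.4 and 685.8. Cryab and Hspb6 were thus low at passage 14 like Bag3, whereas Hspb8 stood out at passage 18 alone. Its dimmer probe sets gave a smaller step there, 73.37, 75.40 and 95.79 for one of them. Hspb11, the fourth detected gene, differed by 0.22 in log2 between passages 18 and 13. Markers of mural and smooth muscle cells, whose tissues also express these genes, had summed intensities of 6195, 1095 and 7375 at the 3 passages, with 3 of 8 detected and Myh11 below the floor. Acta2 and Tagln carry that sum and both were lowest at passage 14, but Acta2 read 1467, 308 and 5289 and Tagln 4535, 618.6 and 1756, opposite ways between passages 18 and 13. Their part in the Cryab and Bag3 values was not tested.

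Among J-domain proteins all 19 listed genes were detected, 9 higher and 10 lower at passage 14 than at 13. Of the 9145 detected genes, 4426 were higher and 4681 lower in that pair, so these counts set the J-domain genes little apart. Dnajb4, a close relative of Dnajb1, read 2469, 1476 and 3202, the order seen for Dnajb1, and its second detected probe set read 398.7, 225.8 and 469.6. Dnajb5 read 192.3, 261.7 and 281.6, but its other probe sets disagreed, with 198.6, 117.6 and 196.5 for one of them. Dnaja4 read 166.3, 112.5 and 107.9, and Dnajc3 differed by -0.51 in log2 between passages 18 and 13. Hspa2, another Hsp70 of the cytosol, read 481.3, 228.1 and 532.8, lowest at passage 14. Hspa12b, an Hsp70-like gene of endothelium, read 725.6, 1160 and 513.6, highest at passage 14. Hspa13 was 1.29-fold and Hspa14 1.14-fold higher at passage 18 than at 13. Of the Bag and co-chaperone list 8 of 9 genes were detected, and none differed 2-fold between any pair. Between passages 18 and 13 the ends of that list were Bag4 at 0.62 and Bag2 at 0.46, and St13 at -0.32 and Bag1 at -0.22.

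Hspa5, the main Hsp70 of the endoplasmic reticulum, read 5037, 5251 and 5054, and Hsp90b1, its Hsp90, read 5126, 5614 and 5749. Some other chaperones of that compartment differed more, such as Dnajc3 and Hspa13 above, while Dnajb11 read 2469, 2235 and 2235. Hsf1 was not analysed here. Hsf2 was at the floor, with 45.58, 51.79 and 45.54 against floors of 45.8, 48.1 and 46.3, and the other measured heat shock factors exceeded it at no passage. Hsbp1, a small protein that binds HSF1, read 3113, 2397 and 3396. Cirbp, an RNA-binding protein induced by mild cold, read 112.9, 84.11 and 179.2, detected on all arrays 3 days after the move to 37 °C.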

How the data were processed

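RNA of the 3 cultures was amplified, labelled with biotin and hybridised to a 1-colour Affymetrix mouse array, per the labels' protocols. The values deposited are linear signal intensities, 1 for each probe set in each culture. MAS5 is named in the submitters' processing notes without a role, and other steps by the authors are not given here. Median intensities were 25.7, 26.0 and 26.3, so no further normalization was applied. The annotation gave 1 gene to 34958 probe sets, several to 932 and none to 9211, and 34754 were matched to GRCm38.p6 symbols by Entrez identifier. Precision is limited by there being 3 arrays.

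A gene's value was that of its brightest probe set, by mean log2 over the cultures. The floor list held 48 measured genes, 3 of which passed their own floor. The trend used R 4.3.3 with limma 3.58.1 (eBayes, intensity trend) and its script was tested on simulated data. P-values measure only the spread of these 3 cultures about a line in passage, pooled in part over genes by eBayes. That spread may be technical. Members and lists were chosen with earlier results of these data known. Named genes were all members, the 2 highest and 2 lowest genes by passage 18 minus 13 in each chaperone list, context genes and the 5 patterns nearest Bag3. Rbm3 was not analysed here. Alternatives were the floor's percentile (90 or 99), the median of probe sets, leaving out probe sets ending in _x_at, _s_at or _a_at, quantile normalization, median centring, adding 16 before log2, testing dim genes too, passage 18 set against the others' mean, eBayes without a trend, and leaving out each culture.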

Additional observations from a re-analysis of the deposited data

How the results depend on the processing

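All 9 measured heat shock genes stayed above the floor under quantile normalization, median centring, an offset of 16, the median of probe sets and the floor at the 90th percentile, and with each culture left out (9 to 9). The floor at the 99th percentile left 8, since Hspa1a at passage 14 read 7.03 in log2 against a floor of 7.17, and leaving out _x_at, _s_at and _a_at probe sets left 7, because Hsph1 and Hspb1 then had none. The count past 2-fold was 0 under each alternative, whereas at 0.3 in log2 it was 5 for passage 14 over 13, 4 for 18 over 13 and 5 for 18 over 14. In those pairs it was 3, 2 and 4 at 0.3 with the median of probe sets, and 4, 3 and 5 at 0.3 without _x_at, _s_at and _a_at sets. The median SD lay between 0.20 and 0.35 over the settings and between 0.21 and 0.27 with a culture left out. With the median of its probe sets, Hsp90aa1 had a log2 difference of -0.084 for passage 14 minus 13 in place of 0.39, since its probe sets disagree. Without _x_at, _s_at and _a_at probe sets Hspa8 stood at 6.85 and Hspa1b at 7.03, the levels of their dimmer probe sets.

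The trend called 0 genes in each of its 8 alternatives, with smallest adjusted p between 0.617 and 0.945. The slope of Hspa8, at 0.000001 per passage, turned to -0.0043 with the median of probe sets and to -0.0066 with median centring. Without _x_at, _s_at and _a_at sets it was -0.012. Bag3 had a slope of -0.0074 per passage. Passage 18 against the mean of the others gives a log2 difference in place of a slope, and for Bag3 it was positive, at 0.12. With a culture left out, slopes ranged from -0.90 to 0.14 for Bag3, -0.23 to 0.18 for Dnajb1, -0.12 to 0.39 for Hsp90aa1, -0.085 to 0.10 for Hspa1a, -0.17 to 0.028 for Hspa8, -0.070 to 0.14 for Hspb1, -0.16 to 0.55 for Hspd1 and -0.038 to 0.48 for Hsph1, so none has a settled direction. Of the 9 genes, Hspa1b alone kept its sign, from 0.019 to 0.34, by its brightest probe set. With the median of its probe sets, its log2 difference of passage 18 minus 14 was -0.034, so its direction is not settled either. No paired analysis was possible because the 3 cultures form 1 group.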
